A study of Mus musculus with 11 samples.

Results

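The genes described here were the subunits and inhibitors of NF-kB, 10 genes of the 23282 entries in the count files: Nfkbiz, Nfkbia, Nfkbib, Nfkbid, Nfkbie, Tnfaip3, Nfkb1, Nfkb2, Rel and Rela. They were found by gene symbol, and each symbol had 1 entry. Nfkbiz was selected from its measured values, because it passed the test between day 39 and day 0 in the libraries labelled knockout, and the other 9 genes were added as its family. The values of Nfkbiz in that contrast are therefore a description.

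RNA was sequenced from intestinal macrophages of mouse colon that carried the surface pattern CD45+CD11b+Ly6G-Ly6C-MHCII+CD64+. Some mice were labelled WT, for wild type, and the others carried the strain name Csf1r-EP4-/-, abbreviated to KO below. EP4 is a prostaglandin E2 receptor encoded by Ptger4, and Csf1r encodes the receptor for macrophage colony-stimulating factor. The strain name is the source of the genotype used here, and which cells lose the receptor, and how, was taken from no other label. All mice, in every group, are described with the same treatment, 5 days of 2.5% DSS (dextran sodium sulphate) in the water, which injures the colon lining and causes colitis. Day 0 had 3 KO and 2 WT libraries and day 39 had 3 of each, where the day is that of the DSS course in the sample titles. The study's design text speaks of triplicates, and the WT day 0 group analysed here has 2 libraries. The labels number the libraries without naming mice, so p-values measure the spread between these libraries, which may be technical in part.

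NF-kB is a family of transcription factors that act as pairs of subunits. In resting cells IkB proteins hold the pairs in the cytoplasm. Signals from Toll-like, interleukin-1 or TNF receptors lead to the loss of IkB, and the freed pairs enter the nucleus and switch on inflammatory genes, among them the genes of their own inhibitors. IkB-zeta, encoded by Nfkbiz, is an atypical member that acts in the nucleus and helps switch on a second set of genes. In the colon the pathway is active in macrophages and in the epithelium, where it takes part in the response to bacteria.

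Total counts ran from 4003299 to 14207919 per library, and 1864 to 4170 genes per library reached 100 counts. The common biological coefficient of variation was 2.48, and 59.1% of the values of the 6987 tested genes were at 10 counts or fewer. Of 10 genes that mark macrophages, C1qa, C1qb, C1qc and Csf1r were at 100 counts or more throughout, and so were the MHC class II genes H2-Ab1, H2-Aa and H2-Eb1. The other macrophage markers were not: Adgre1 had 1 and 3 counts and Cd68 0 and 1 in 2 libraries each, Mrc1 had 7, 11 and 13 in 3, and Cx3cr1 and Lyz2 had 14 in 1 library each, while Mertk was at 0 in all 11. Other genes of the labelled identity were listed at 0 in some libraries, Ptprc (CD45) and Itgam (CD11b) in 1 each and Fcgr1 (CD64) in 4. Of the genes of Ly6C, absent from the labelled surface pattern, Ly6c1 had 2323 counts in KO day 0 library 2 and at most 17 elsewhere, and Ly6c2 had 2100 in KO day 39 library 1, 556 in WT day 39 library 2, 459 in KO day 0 library 1 and at most 25 elsewhere. Ptger4 did not follow the genotype labels. Its counts were 1350, 0 and 890 (KO) and 0 and 0 (WT) at day 0, and 1, 8 and 4501 (KO) and 1481, 152 and 7286 (WT) at day 39. Whether the reads in KO lie outside the deleted stretch was not tested, nor was the absence of reads in WT day 0. KO and WT below mean libraries labelled KO and WT. In these bulk libraries fewer cells of a type and less RNA per cell cannot be told apart.

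All 10 genes entered the test. Of their 110 values, 32 were 0, 55 were at 10 counts or fewer and 50 were at 100 counts or more. The level of a gene is given as CPM, counts scaled to a library of 1000000 reads and adjusted between libraries by TMM. Nfkbiz, Nfkbia and Tnfaip3 were the 3 genes with at least 100 counts in most libraries, 8, 11 and 8 of 11. The other 7 were on in a few libraries and near 0 in the rest.

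**Figure D1:**
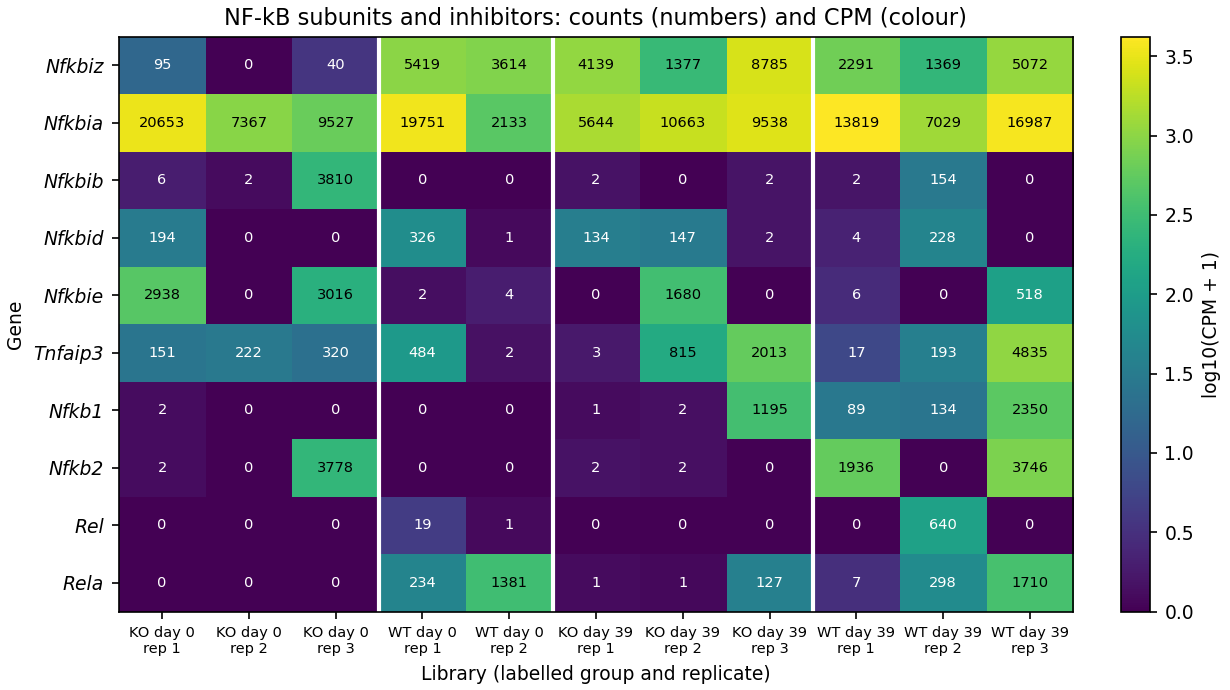
Raw counts (numbers) and log10(CPM + 1) (colour) of the 10 genes, in rows, for each of the 11 libraries, in columns split by labelled group. Nfkbia is bright in every library, Nfkbiz is dark in the 3 KO day 0 libraries only, and each of the 7 genes other than these and Tnfaip3 reaches 100 counts in 1 to 5 libraries.

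Nfkbiz showed the pattern that set the choice of genes. At day 0 it had 95, 0 and 40 counts in the libraries labelled KO and 5419 and 3614 in those labelled WT. At day 39 it had 4139, 1377 and 8785 counts (KO) and 2291, 1369 and 5072 (WT). As levels these were 15.3, 0 and 2.6 CPM (KO) and 968 and 852 (WT) at day 0, and 1070.4, 272 and 2531 (KO) and 695, 252 and 1111 (WT) at day 39. The 0 in KO day 0 library 2 allows a level of up to 0.386 CPM, the value of 3 counts there. All 3 KO day 0 libraries lay below the other 8, and the other 3 groups overlapped one another.

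The mean level of Nfkbiz was 5.96 ± 8.16 CPM in KO day 0 (SD, n = 3), 909.8 ± 82.4 in WT day 0 (SD, n = 2), 1291 ± 1146 in KO day 39 (SD, n = 3) and 686 ± 429.6 in WT day 39 (SD, n = 3). In order of level KO day 39 came first, then WT day 0, WT day 39 and KO day 0, and neighbours among the first 3 differed by less than the SD of KO day 39 or of WT day 39. In the values behind the choice, Nfkbiz rose from day 0 to day 39 in KO by 7.76 ± 1.88 on the log2 scale (edgeR log2 fold change ± SE) with an adjusted p of 0.0267. It was 1 of 11 genes called there, 0.157% of the genes tested. The rise was present in all 16 alternative fits, at 6.38 to 9.91, and the call in 5 of them. Leaving out KO day 0 library 2 (adjusted p = 0.363), KO day 0 library 3 (0.303), KO day 39 library 1 (0.0694) or KO day 39 library 3 (0.449) ended the call in edgeR's test, and leaving out either remaining library of these groups kept it (adjusted p = 0.00971 and 0.0408).

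The contrast of KO with WT at day 0 uses the same KO day 0 libraries. Nfkbiz was at −7.25 ± 1.88 there and did not pass edgeR's test (adjusted p = 0.197). Across genotype labels its day contrast averaged 3.67 ± 1.23 (edgeR adjusted p = 0.164). The difference between the day contrasts of KO and WT, the interaction, was 8.16 ± 2.29 (edgeR adjusted p = 0.324). DESeq2 called Nfkbiz in the interaction (adjusted p = 0.0268) and between KO and WT at day 0 (adjusted p = 0.00517), as edgeR did in all 3 contrasts without KO day 0 library 1 (adjusted p = 0.0422 at day 0, 0.0265 for the averaged days and 0.0419 in the interaction). All of these rest on the low KO day 0 values that led to the choice of Nfkbiz, so none is independent support. Between KO and WT at day 39 Nfkbiz differed by 0.91 ± 1.41 (edgeR adjusted p = 0.941), and without KO day 39 library 3 by −0.031. From day 0 to day 39 in WT, the one contrast that shares no library with the choice, it differed by −0.41 ± 1.55 (edgeR adjusted p = 0.963).

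**Figure D2:**
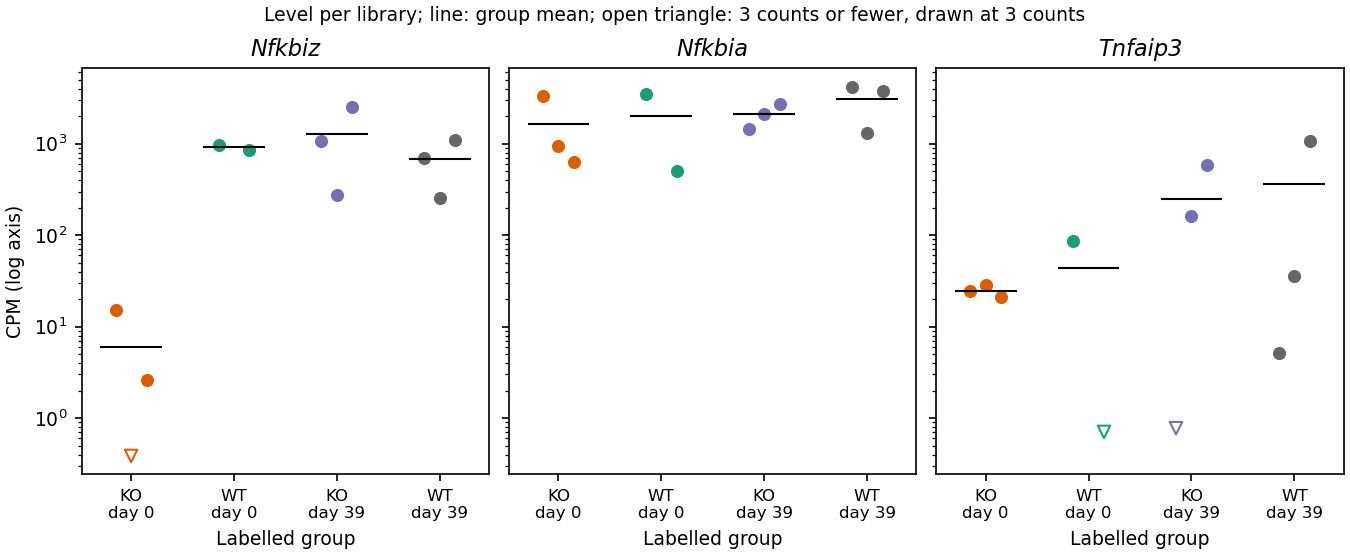
Level of Nfkbiz, Nfkbia and Tnfaip3 in CPM on a log axis, 1 point per library by labelled group, with a line at the group mean; an open triangle is a library with 3 counts or fewer, drawn at the value of 3 counts. The KO day 0 points of Nfkbiz, at 15.3 CPM or less, lie apart from the other 8, at 252 to 2531, while the groups overlap for Nfkbia and Tnfaip3.

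Genes with all KO day 0 libraries below the other 8 libraries numbered 39, or 0.558% of the 6987 tested. With KO day 0 levels set to no less than the value of 3 counts, the gap between the highest KO day 0 library and the lowest other library was 10-fold or more for 2 of them. For Nfkbiz the gap was 16.5-fold, from 15.3 to 252 CPM. The other was Elf3, a transcription factor gene typical of epithelial cells, which had at most 2 counts (0.321 CPM) in KO day 0 and 229 to 1641 counts, or at least 40.9 CPM, elsewhere, so no exact fold is given. The genes whose levels ranked the 11 libraries most like Nfkbiz, among 2090 genes with a mean of at least 100 CPM, were Psmb10 (Spearman rho 0.897), Elf3 (0.891), Tgoln2 (0.872), Hist1h1c (0.834) and Isg20 (0.834). These are descriptions over libraries that share the low KO day 0 group, and Hist1h1c reached 587 counts in KO day 0.

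Markers of other cells moved between the same libraries. Of 15 epithelial markers, 5 to 10 had a count in the KO day 0 libraries and 6 to 7 in WT day 0, against 12 to 15 in KO day 39 and 10 to 15 in WT day 39. Their summed level was 292 to 1341 CPM in KO day 0, 916 to 2143 in WT day 0, 4274 to 11849.7 in KO day 39 and 1842 to 7841 in WT day 39. Krt18, Cldn3, Lgals4 and Slc26a3 were at 0 in all 5 day 0 libraries, while Cdh1 had counts in all 11 (1865, 48 and 13550 in KO and 472 and 3645 in WT at day 0), and Fcgbp averaged 183.6 CPM in WT day 0 and 25.9 in WT day 39. None of the 15 was called by edgeR in the 6 contrasts (smallest adjusted p = 0.0527, between the days averaged over genotype labels), where it called 0.0% to 0.301% of all genes. At an unadjusted p under 0.05 there were 3 of 15 between the days in WT, 7 in KO and 9 averaged over genotype labels, beside 6.68%, 18.2% and 19.2% of all genes, and 0 in the other 3 contrasts. The median log2 fold change of the 15 was 5.92 in WT and 5.41 in KO, and 5.33 and 4.26 with bounds for genes at 0 in a group, beside 1.64 and 0.00 over all tested genes. WT day 0, with 5419 and 3614 counts of Nfkbiz, had epithelial sums of 916 and 2143 CPM, the second above the 1842 CPM of WT day 39 library 3, and the part of epithelial cells in the Nfkbiz values was not tested.

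Summed levels of skeletal muscle and of stromal markers were highest in KO day 0 libraries 2 and 3. Of single muscle markers, Ckm and Myh4 peaked in WT day 39 library 2, at 2101 and 4443 CPM. The 7 muscle markers, all with counts in every library, summed to 2046, 21655 and 18385 CPM in KO day 0 and to 1752 to 14059 CPM in the other 8 libraries. The 6 stromal markers, of which 4 to 6 had a count in a library, summed to 4352, 18479 and 20712 CPM in KO day 0 and to 3035 to 15209.9 CPM in the others. Of the 7 muscle markers, edgeR called only Tnnc2 and Pvalb. They were lower at day 39 than at day 0, in KO and averaged over genotype labels, beside 0.157% and 0.301% of all genes. At day 39 they were lower in KO than in WT (−8.65 ± 1.79 and −9.48 ± 2.06, edgeR adjusted p = 0.00953 and 0.0144). There they were the only genes called, 0.0286% of those tested. Mean levels of the remaining muscle markers went both ways at day 39. Acta1 averaged 918 CPM in libraries labelled KO and 863 in WT, while Ckm, Mylpf, Myh4 and Tnnt3 were lower in KO. Neutrophil, B cell and T cell markers summed to at most 236, 210.5 and 1.03 CPM in any library. Macrophage markers, 8 or 9 of 10 with a count, summed to 16005, 4577 and 4165 CPM in KO day 0 and to 5861 to 10742 CPM elsewhere. KO day 0 library 1 lay within the range of the other 8 for the epithelial, muscle and stromal sums. Its macrophage sum was the highest of all. Its Nfkbiz level of 15.3 CPM was below all 8, but is among the values behind the choice and no independent support. With libraries 2 and 3 of KO day 0 left out, Nfkbiz was higher at day 39 in KO by 6.38 ± 2.50. This alternative was chosen after seeing the data, and the lone KO day 0 library is then assumed to vary like the other groups. The part of these cells in the Nfkbiz values of libraries 2 and 3 was not tested.

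**Figure D3:**
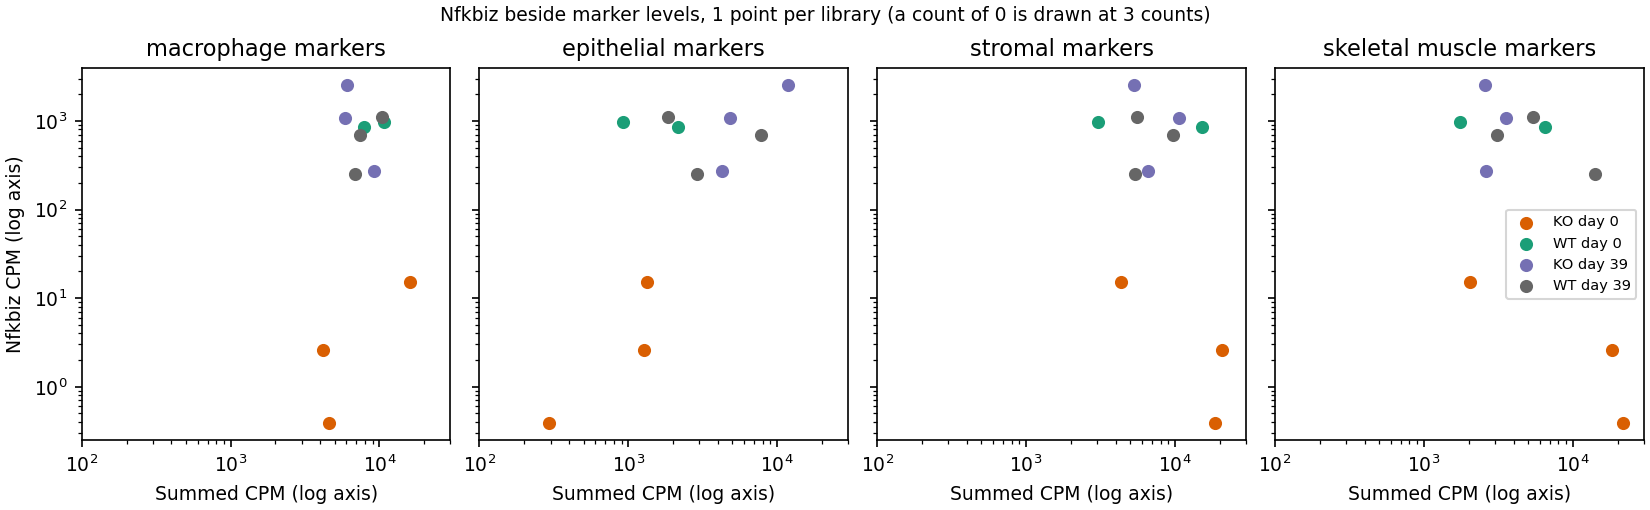
Level of Nfkbiz (CPM, log axis) against the summed level of macrophage, epithelial, stromal and skeletal muscle markers (CPM, log axis), 1 point per library, coloured by labelled group; a count of 0 is drawn at 3 counts. KO day 0 library 1, at 15.3 CPM of Nfkbiz, has epithelial, stromal and muscle sums of 1341, 4352 and 2046 CPM, inside the range of the other groups. Its macrophage sum of 16005 CPM is the highest of all libraries. KO day 0 libraries 2 and 3 are the highest for the stromal and muscle sums.

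Nfkbia encodes IkB-alpha, the classical inhibitor that is lost on stimulation and made again as an NF-kB target. Tnfaip3 encodes A20, an enzyme that edits ubiquitin chains and shuts down signalling to NF-kB. They were the 2 genes of the family with a count in every library, and both are known to be induced by NF-kB, so the sequence before their first listed start site is shown. It is taken from RefSeq (GRCm38.p6), runs from 250 bases before to 50 bases from the start site, and is read on the minus strand at chr12:55492598-55492897 for Nfkbia and chr10:19015361-19015660 for Tnfaip3. Capitals mark matches, on either strand, to the letters of the NF-kB (kB) motif, GGG then any 5 bases then CC, and matches that overlap run together.
Nfkbia: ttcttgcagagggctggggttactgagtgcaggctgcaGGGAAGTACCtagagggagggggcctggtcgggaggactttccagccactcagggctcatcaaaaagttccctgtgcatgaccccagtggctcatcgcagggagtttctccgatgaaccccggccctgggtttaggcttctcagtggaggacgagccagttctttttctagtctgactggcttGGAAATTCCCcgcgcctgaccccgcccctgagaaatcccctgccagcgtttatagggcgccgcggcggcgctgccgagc
Tnfaip3: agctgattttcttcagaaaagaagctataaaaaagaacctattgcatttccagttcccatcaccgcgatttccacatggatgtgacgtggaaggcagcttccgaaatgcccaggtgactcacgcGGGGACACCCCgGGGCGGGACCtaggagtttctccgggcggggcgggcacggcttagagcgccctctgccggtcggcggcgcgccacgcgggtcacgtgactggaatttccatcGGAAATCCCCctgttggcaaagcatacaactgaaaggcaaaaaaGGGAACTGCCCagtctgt
The Nfkbia sequence held matches at 2 positions, which began 212 and 29 bases before the start. The Tnfaip3 sequence held matches at 6 positions, counting those that overlap and counting a position that matches on both strands once. Of the 10 genes, 8 had entries (not Nfkbiz or Nfkb1), with 13 promoters in all, and 12 of the 13 held a match, the exception being Nfkbib. The motif is loose: 50.8% of all 32851 promoters of this length held at least 1 such position and 27.4% at least 2. A match in this window is a description of letters and no evidence of binding.

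Nfkbia was the most evenly detected gene of the family and the one with at least 100 counts in every library, as had 3.61% of the genes tested. It had 20653, 7367 and 9527 counts (KO) and 19751 and 2133 (WT) at day 0, and 5644, 10663 and 9538 (KO) and 13819, 7029 and 16987 (WT) at day 39. As levels these were 3319, 947 and 624 CPM, then 3529 and 503, then 1459.7, 2107 and 2748, then 4195, 1293 and 3720. The groups overlapped in every contrast, and within WT day 0 the libraries differed more than the group means did. The means were 1629.9 ± 1472 CPM in KO day 0 (SD, n = 3), 2016 ± 2139.7 in WT day 0 (SD, n = 2), 2105 ± 644 in KO day 39 (SD, n = 3) and 3069 ± 1557 in WT day 39 (SD, n = 3).

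No contrast of Nfkbia passed edgeR's test. It differed by −0.31 ± 0.90 between KO and WT at day 0 (edgeR adjusted p = 0.968) and by −0.54 ± 0.82 at day 39 (edgeR adjusted p = 0.929). From day 0 to day 39 it differed by 0.61 ± 0.92 in WT (edgeR adjusted p = 0.774) and by 0.37 ± 0.81 in KO (edgeR adjusted p = 0.946). The median of all tested genes in these contrasts was 1.08, 0.00, 1.64 and 0.00, so in WT Nfkbia lay below the median change. With upper-quartile scaling the WT median was 0.48 and Nfkbia was at −0.55. A ratio within each library does not depend on scaling: Nfkbiz had 0.460, 0 and 0.420 counts per 100 counts of Nfkbia in KO day 0. The ratio was 27.4 and 169 in WT day 0, and at day 39 it was 73.3, 12.9 and 92.1 (KO) and 16.6, 19.5 and 29.9 (WT). The KO day 0 counts of Nfkbiz behind its choice enter this ratio, so its low values there are no independent support.

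Tnfaip3 had 151, 222 and 320 counts (KO) and 484 and 2 (WT) at day 0, and 3, 815 and 2013 (KO) and 17, 193 and 4835 (WT) at day 39. The KO day 0 libraries were alike, at 24.3, 28.5 and 20.9 CPM. The other groups were spread widely, at 86.5 and 0.471 CPM in WT day 0, and at 0.776, 161 and 580 (KO) and 5.16, 35.5 and 1059 (WT) at day 39. Its groups overlapped in every contrast. At day 39 it was higher than at day 0 by 3.20 ± 2.49 over both genotype labels, and did not pass edgeR's test (adjusted p = 0.494). Tnfaip3 was higher by 1.12 to 6.43 there when 1 library was left out, and by 0.44 to 3.34 in the other alternative fits. Between KO and WT it differed by −0.82 ± 3.21 at day 0 (edgeR adjusted p = 0.995) and by −0.57 ± 2.92 at day 39 (edgeR adjusted p = 1.0).

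**Figure D4:**
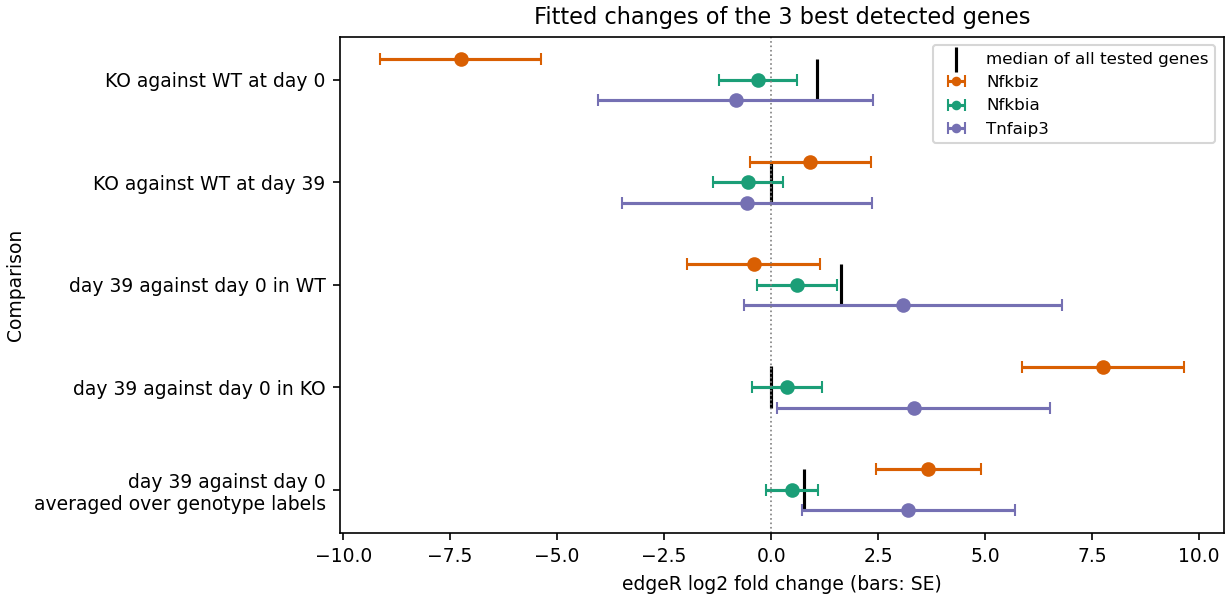
Log2 fold changes of Nfkbiz, Nfkbia and Tnfaip3 fitted by edgeR in 5 contrasts, with bars of 1 SE; a black tick marks the median of all tested genes in each contrast. Nfkbiz lies at −7.25 between KO and WT at day 0 and at 7.76 between the days in KO, and Nfkbia stays within 1 of 0 in all 5.

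The other cytoplasmic IkB genes are Nfkbib (IkB-beta) and Nfkbie (IkB-epsilon). Nfkbib reached 3810 counts in KO day 0 library 3 and 154 in WT day 39 library 2, and had 6 counts or fewer in the other 9. Nfkbie had 2938, 0 and 3016 counts (KO) and 2 and 4 (WT) at day 0, and 0, 1680 and 0 (KO) and 6, 0 and 518 (WT) at day 39. Nfkbid encodes IkB-NS, a nuclear relative of IkB-zeta. It had 194, 0 and 0 counts (KO) and 326 and 1 (WT) at day 0, and 134, 147 and 2 (KO) and 4, 228 and 0 (WT) at day 39. Every group of Nfkbie and Nfkbid with 3 libraries held both a library near 0 and another above 100 counts, so neither gene had a stable level within those groups. For Nfkbib, 1 library held nearly all reads of KO day 0.

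Among the subunits, Rela encodes p65, a subunit with a domain that activates transcription. It was at 0 in all 3 KO day 0 libraries, and had 234 and 1381 counts (WT) at day 0, and 1, 1 and 127 (KO) and 7, 298 and 1710 (WT) at day 39. The WT day 0 level was 183.6 ± 200.5 CPM (SD, n = 2), at least 518-fold higher than KO day 0 at a floor of 3 counts per library. The bound was 118-fold without WT day 0 library 2 and 917-fold without library 1. KO day 39 was at least 34.8-fold higher than KO day 0 by the same floor, and without library 3 no fold can be given, as the other KO day 39 libraries had 1 count each. KO day 0 lay below both groups without overlap, and edgeR's adjusted p was 0.381 against WT and 0.273 against KO day 39. DESeq2 called both and limma-voom the first. Rela and Nfkbiz were both lowest in KO day 0, but at day 39 Rela was at 1 count in KO libraries that had 4139 and 1377 counts of Nfkbiz.

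Nfkb1 encodes the precursor of p50. It had 2, 0 and 0 counts (KO) and 0 and 0 (WT) at day 0, against 1, 2 and 1195 (KO) and 89, 134 and 2350 (WT) at day 39. All WT day 39 libraries lay above WT day 0, and their level of 188.8 ± 282.2 CPM (SD, n = 3) was at least 304-fold higher, and at least 41.6-fold without WT day 39 library 3. Over both genotype labels the rise of Nfkb1 missed edgeR's threshold (adjusted p = 0.192), and limma-voom called it. Nfkb2 encodes the precursor of p52. It had 2, 0 and 3778 counts (KO) and 0 and 0 (WT) at day 0, and 2, 2 and 0 (KO) and 1936, 0 and 3746 (WT) at day 39. The smallest edgeR adjusted p of Nfkb2 was 0.284, between the days in KO. DESeq2 called Nfkb2 in all 6 contrasts, and in each group where it was high at least 1 library was at 0. Rel encodes c-Rel, a subunit of blood cells, and had 640 counts in WT day 39 library 2, 19 and 1 in WT day 0 and 0 in the other 8.

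Nfkbib, Nfkb1 and Nfkb2 overlap other genes in RefSeq (Ccer2, Gm46827, and both 4833438C02Rik and Psd, respectively), and because the counting rule and strand setting are not given in the sources used here, their counts are uncertain. No other symbol had the same counts as any of the 10 genes in all libraries.

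Across the 10 genes, edgeR called none between KO and WT at day 0, where 1 of 6987 genes (0.0143%) was called. At an unadjusted p under 0.05 there were 3 (Nfkbiz, Nfkb2 and Rela), beside 7.99% of all genes tested. DESeq2 gave an adjusted p to 7 of the 10 genes (not to Nfkb1, Nfkbib or Rel) and called the same 3, beside 30.0% of all genes with such a p, and limma-voom called Rela, beside 2.55%. At day 39 edgeR called none, beside 0.0286% of all genes, with 2 at an unadjusted p under 0.05 (7.28% of all). DESeq2 called 1 (14.5% of all) and limma-voom 0 (0.487% of all).

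Between the days in WT edgeR called none of the 10, beside 0.0143% of all genes, with 1 at an unadjusted p under 0.05 (6.68% of all). DESeq2 called 1 (28.4% of all) and limma-voom 0 (2.42% of all). In KO, the contrast behind the choice, edgeR called Nfkbiz, with 2 at an unadjusted p under 0.05 (Nfkbiz and Rela, 18.2% of all), 3 by DESeq2 (27.0% of all) and 0 by limma-voom (2.96% of all). Averaged over genotype labels, edgeR called none between the days, beside 0.301% of all genes, with 2 at an unadjusted p under 0.05 (19.2% of all). DESeq2 called Nfkb2 (29.2% of all) and limma-voom Nfkb1 (2.89% of all). In the interaction edgeR called none, beside 0.0% of all genes, with 3 at an unadjusted p under 0.05 (14.4% of all). DESeq2 called Nfkbiz and Nfkb2 (22.5% of all) and limma-voom 0 (0.272% of all). No test of the list against other genes was made.

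The median log2 fold change of the 10 genes was −0.56, −0.64, 3.75 and 0.71 in the contrasts of KO with WT at day 0 and day 39 and of the days in WT and KO. With genes at 0 in a group set to their bound it was −0.82, −0.64, 3.52 and 1.06, beside 1.08, 0.00, 1.64 and 0.00 over all tested genes.

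Groups did not overlap for 4 of the 10 genes between KO and WT at day 0 (Nfkbiz, Rel and Rela lower in KO, Nfkbib higher), where 12.0% of all tested genes did not overlap. The separation of Rel rests on 1 count in WT day 0 library 2 against 0 in KO, and that of Nfkbib on 2 counts in KO day 0 library 2 against 0 in WT, both within the floor of 3 counts. At day 39 there were 0, against 7.4% of all genes. In WT there was 1 (Nfkb1, higher at day 39), against 17.4%. In KO there were 2, Nfkbiz, which was chosen from this contrast, and Rela, both higher at day 39, against 11.3%, and Rela was separated by 1 count against 0 in 2 of the KO day 39 libraries. The DESeq2 calls stand beside 1249 genes called by DESeq2 over the whole table at day 0, where edgeR called 1.

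The rest of the pathway was covered by 49 genes, of which 24 were tested, and edgeR called none of them in any of the 6 contrasts. At an unadjusted p under 0.05 there were 1 and 1 between KO and WT at day 0 and day 39, 0 and 4 between the days in WT and KO, 3 averaged over genotype labels and 3 in the interaction. The shares of all tested genes at that p were 7.99%, 7.28%, 6.68%, 18.2%, 19.2% and 14.4% in the same order, so the 4 of 24 in KO stand beside 18.2%. DESeq2, with an adjusted p for 12 or 13 of the 24, called 5, 2, 3, 4, 2 and 0, beside 30.0%, 14.5%, 28.4%, 27.0%, 29.2% and 22.5% of all genes. Limma-voom called 1 at day 0, beside 2.55% of all genes, and 0 elsewhere. It was Nkiras1, higher in KO, with 1446, 2456 and 3207 counts against 0 and 1 in WT. Of 12 receptor genes 5 were tested, and the Toll-like receptor genes Tlr4 and Tlr5 never exceeded 3 counts. Of 18 adaptors and kinases upstream of the IkB kinases 6 were tested, of 5 IkB kinase genes 3, and of 12 ubiquitin regulators and binding partners 9. Relb, the remaining subunit, was at 0 in every library. The 2 genes with the highest mean level were Irak1, a kinase below the interleukin-1 and Toll-like receptors, and Cd14, a co-receptor for bacterial lipopolysaccharide.

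Irak1 had 2453, 4496 and 0 counts (KO) and 1 and 2477 (WT) at day 0, and 3, 8 and 5 (KO) and 858, 4420 and 3 (WT) at day 39. The KO day 39 libraries were all low and the other groups held both high and low libraries. Cd14 had 6, 479 and 7 counts (KO) and 15 and 125 (WT) at day 0, and 983, 3642 and 3 (KO) and 175, 172 and 2489 (WT) at day 39. Its groups overlapped between genotype labels at both days and between the days in KO. In WT all its day 39 libraries lay above day 0, in a contrast where 17.4% of all tested genes did not overlap. The list's median log2 fold change was −0.34 and 0.55 between KO and WT at day 0 and day 39, and 0.90 and 1.66 between the days in WT and KO. With bounds in place of fits for genes at 0 in a group it was −0.75, 0.55, 0.21 and 1.22.

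Known NF-kB target genes numbered 27, of which 18 were tested, and edgeR called none in any of the 6 contrasts. At an unadjusted p under 0.05 there were 1 and 0 between KO and WT at day 0 and day 39, 0 and 1 between the days in WT and KO, 2 averaged over genotype labels and 1 in the interaction. These counts of 18 stand beside 7.99%, 7.28%, 6.68%, 18.2%, 19.2% and 14.4% of all tested genes. DESeq2, with an adjusted p for 15 of the 18, called 2, 1, 2, 0, 1 and 2, where it called 14.5% to 30.0% of all genes. Limma-voom called Cxcl2 lower in KO at day 0 (2.55% of all genes) and Il1b higher at day 39 in KO (2.96% of all). Il1b and Cxcl2 encode the cytokine IL-1 beta and a chemokine for neutrophils, and they were the 2 targets with at least 100 counts in every library.

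Il1b had 22294, 4749 and 10572 counts (KO) and 8724 and 2184 (WT) at day 0, and 10526, 16929 and 23139 (KO) and 7192, 5478 and 29785 (WT) at day 39. Its level was 1628 ± 1693 CPM in KO day 0 (SD, n = 3) and 4245 ± 2121 in KO day 39 (SD, n = 3), so the KO day 0 libraries, low in Nfkbiz, carried Il1b. Cxcl2 had 19320, 5408 and 2405 counts (KO) and 16741 and 12512 (WT) at day 0, and 7494, 4906 and 7112 (KO) and 2757, 7269 and 14544 (WT) at day 39. Lcn2, the gene of lipocalin-2 and a known target of IkB-zeta, had at most 2 counts in any library, and Il6 and Il10 were at 0 in 9 and 8 of the 11 libraries. The median log2 fold change of the targets was −0.91 and 0.40 between KO and WT at day 0 and day 39, and −0.61 and 1.32 between the days in WT and KO, and bounds left these values as they were.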

How the data were processed

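Single libraries of colonic macrophages were compared by genotype label and day, as given in the sample titles. The file names give day 35 for the libraries titled day 39. The kit was Lexogen Quant-Seq on Trizol RNA, per the labels' protocols; it reads transcripts near their 3′ end, so a level is not divided by gene length. Values as deposited by the authors are raw counts, 1 whole number per symbol and library. Per the submitters' processing notes, Bowtie2, edgeR and hg19 were used, with no versions or roles; hg19 is a human build and the symbols are of mouse, so no coordinates are taken from it. Filters and strand setting are not given in the sources used here.

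The test was that of edgeR 4.0.16, run in R 4.3.3 (filterByExpr, TMM, robust glmQLFit with 1 coefficient per group on all 11 libraries, glmQLFTest, 6 contrasts). Of 23282 entries, 6987 were tested and 16295 were not. P-values were two-sided and adjusted by Benjamini-Hochberg over all tested genes, with a threshold of 0.05. SE is the log2 fold change over the square root of F. CPM is counts per 1000000 of the TMM-scaled sum over tested genes. A floor of 3 counts per library was used for bounds, and covers counting error only. Alternatives were other scalings, filters and fits, DESeq2 1.42.0, limma-voom (limma 3.58.1), a replicate block and leaving out libraries. In simulated counts, changes of a single size were planted in KO day 39 only, with the same spread for every gene. The fit recovered them at a small spread, and called none of them at a spread like that of these libraries. Other sizes were not simulated. The genes, lists and tests were chosen with earlier results of these data known. Genes named beside the 10 are those edgeR called in the pathway and target lists (none), else the 2 with the highest mean CPM per list, the 5 with the highest Spearman correlation with Nfkbiz, and Ptger4. Others (Elf3 by its gap, list genes called by limma-voom, marker genes named singly from the macrophage, sort, epithelial and muscle lists, Relb, Tlr4, Tlr5, Lcn2, Il6, Il10) were named after their values were seen.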

Additional observations from a re-analysis of the deposited data

How the results depend on the processing

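Few libraries, and counts near 0 in many of them, limit every contrast. Of the 10 genes, 0 were called between KO and WT at day 0, against 3 with DESeq2, 1 with limma-voom and 0 to 1 when 1 library was left out. At day 39 they were 0 against 1 with DESeq2, and between the days in WT 0 against 1 with DESeq2. Between the days in KO the 1 call became 3 with DESeq2, and 0 with library-size scaling, upper-quartile scaling, limma-voom, no filter, a filter at 10 counts on average, the groups compared alone, or KO day 0 libraries 2 and 3 left out (an alternative chosen after seeing the data), and 0 to 1 when 1 library was left out. Averaged over labels 0 became 1 with DESeq2, 1 with limma-voom and 0 to 1 without 1 library, and in the interaction 0 became 2 with DESeq2 and 0 to 1 without 1 library. The cause was not tested. Fits on the groups compared alone have fewer libraries. Such fits, and those with other filters, test other numbers of genes (2914 to 12767). Genes called over the whole table by DESeq2 were 1249, 585, 1183, 1144, 1216 and 934 and by limma-voom 178, 34, 169, 207, 202 and 19, in the order of the 6 contrasts, against 1, 2, 1, 11, 21 and 0 by edgeR.

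Several fold changes turned sign, each short of the threshold on both sides. Nfkbia turned to −0.55 (WT days) and −0.23 (averaged days) with upper-quartile scaling, and to 0.75 (day 0) and −0.64 (KO days) with KO day 0 libraries 2 and 3 left out. Tnfaip3 turned to 1.69 at day 0 with limma-voom. When 1 library was left out, Nfkbiz ranged from −0.031 to 1.45 at day 39, Nfkbia from −1.36 to 1.70 at day 0, from −0.11 to 2.61 between the days in WT and from −0.071 to 1.42 in KO, and Tnfaip3 from −1.70 to 5.64 at day 0, from −2.18 to 3.60 at day 39 and from −1.10 to 9.54 between the days in WT. Over the other 7 genes, in the 16 pairs of gene and contrast in which each group used had a library over 3 counts, the sign changed in 12 of 146 fits and in 19 of 110 that left out 1 library. A group left with 1 library is assumed to vary like the others. With library-size scaling the mean of Nfkbiz in WT day 0 moved to 1021 CPM.

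Libraries with the same number in their titles did not pair: the 15 correlations of their deviations were −0.0137 to 0.0697, none over 0.1, and those of libraries with other numbers −0.0697 to 0.0457. The file name of WT day 0 library 2 gives number 3; no pair under that number was over 0.1 either, and no block was fitted with it. With the replicate block edgeR called 0, 1, 0, 12, 7 and 0 genes over the whole table, no call among the 10 genes was gained or lost, Nfkbiz between the days in KO was at 8.19 (edgeR adjusted p = 0.0466), and Tnfaip3 turned to 0.53 at day 39 and −0.67 between the days in WT.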
